A study of Homo sapiens with 18 samples.

Results

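The subject is 721 promoters that face each other head to head in 423 pairs, out of 42133 promoters counted in the series. In each pair, a minus-strand promoter lies 0 to 500 bases to the left of a plus-strand promoter, so that transcription leaves the space between them in both directions. The members were chosen by position, by a width (end minus start) of 13 to 59 bases and by a total of at least 100 tags over the 18 libraries. The widths and tag totals are measured values, and they are given here as a description of the choice. The total includes the drug libraries, so a promoter with few vehicle tags could pass by its tags with drug. Of the 721, 23 had under 10 tags in the 6 vehicle libraries together, and their rises with drug are descriptions. Of 7941 promoters of that width and total, 9.08% had such a partner. The pairs were drawn from 11613 head-to-head pairs in the whole table, of which 1070 had 100 tags on each side. Just inside the rule lay a gap of 499 bases, a total of 100 tags and widths of 13 and 59 bases. Just outside lay a gap of 501 bases, a total of 99 tags and widths of 12 and 60 bases.

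The assay was CAGE (cap analysis of gene expression), in which the 5′ end of each capped RNA is read as a short tag. A tag count is thus a level of starts and needs no correction for gene length. The libraries came from total RNA of 2 human acute myeloid leukaemia cell lines, AML2 and AML3, which the tables call OCI-AML2 and OCI-AML3. Each line was given DMSO (the vehicle), JQ1 or OTX015, and each of these 6 groups has 3 libraries. The labels give no genotype, dose or treatment time. As background, OCI-AML3 carries a mutated NPM1 gene and OCI-AML2 does not, and each line descends from a single patient's leukaemia, so a difference between the lines cannot be assigned to NPM1. Both drugs are thienotriazolodiazepines, small molecules that fill the acetyl-lysine pocket of BET bromodomains and release these proteins from chromatin. They differ in the group that ends the side chain, a tert-butyl ester in JQ1 and a hydroxyphenyl amide in OTX015. The labels do not say whether libraries came from separate cultures, so the p-values measure the spread between these libraries.

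Many human genes are arranged head to head, with a shared stretch of DNA, often a CpG island, between their starts. Such a stretch usually holds a core promoter for each direction, and the RNAs may be 2 messenger RNAs or a messenger RNA and a noncoding RNA. Replication-dependent histone genes, DNA repair genes and genes for mitochondrial proteins are well known among these arrangements. BET proteins bind acetylated histones at active promoters and enhancers and help RNA polymerase II to leave the promoter.

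The stretches between the RefSeq start sites of 6 pairs are printed first because the results turn on these genes. They run from the start of the minus-strand gene to that of the plus-strand gene in RefSeq, on the plus strand of GRCh38.p14. RefSeq starts can differ from the measured ones. The measured promoters of HSPD1 and HSPE1 lie 467 to 499 bases apart and those of TK1 and AFMID 292, farther than the stretches printed for them. Capitals mark exact matches on either strand to a short list of promoter motifs. The TATA box was searched as TATAAA and the CCAAT box as its 5 letters. The GC box was searched as GGGCGG and the ETS core as CCGGAAG. The E-box was searched as CACGTG and the CRE as TGACGTCA. The first 3 are histone pairs with several CCAAT matches and no GC box, and the others hold a GC box and no CCAAT.
HIST3H2A and HIST3H2BB, chr1:228457874-228458102: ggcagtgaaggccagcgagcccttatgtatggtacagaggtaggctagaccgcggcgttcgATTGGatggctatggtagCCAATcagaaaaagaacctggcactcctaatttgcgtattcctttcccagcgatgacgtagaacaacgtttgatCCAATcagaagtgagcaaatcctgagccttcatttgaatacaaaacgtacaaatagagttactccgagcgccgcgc
HIST1H2BL and HIST1H2AI, chr6:27807930-27808172: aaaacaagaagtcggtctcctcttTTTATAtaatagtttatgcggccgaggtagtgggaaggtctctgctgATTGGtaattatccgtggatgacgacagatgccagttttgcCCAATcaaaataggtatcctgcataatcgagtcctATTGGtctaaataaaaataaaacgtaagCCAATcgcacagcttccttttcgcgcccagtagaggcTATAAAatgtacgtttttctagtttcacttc
HIST1H2AJ and HIST1H2BM, chr6:27814778-27815021: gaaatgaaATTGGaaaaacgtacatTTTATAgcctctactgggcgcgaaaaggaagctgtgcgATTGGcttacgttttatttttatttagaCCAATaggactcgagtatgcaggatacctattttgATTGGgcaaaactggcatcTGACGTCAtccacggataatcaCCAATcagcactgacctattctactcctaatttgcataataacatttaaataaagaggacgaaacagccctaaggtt
HSPD1 and HSPE1, chr2:197500275-197500378: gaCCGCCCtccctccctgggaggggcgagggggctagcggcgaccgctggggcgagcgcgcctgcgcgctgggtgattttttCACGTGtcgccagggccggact
NTHL1 and TSC2, chr16:2047835-2047984: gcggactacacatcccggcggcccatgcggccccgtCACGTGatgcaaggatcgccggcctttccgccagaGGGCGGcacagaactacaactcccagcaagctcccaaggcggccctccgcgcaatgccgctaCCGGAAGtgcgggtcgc
TK1 and AFMID, chr17:78187205-78187361: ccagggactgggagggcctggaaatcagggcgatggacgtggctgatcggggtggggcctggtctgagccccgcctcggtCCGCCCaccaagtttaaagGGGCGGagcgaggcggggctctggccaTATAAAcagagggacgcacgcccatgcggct

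A promoter was given a gene's name where its counts, alone or summed with neighbouring promoters, equalled that gene's counts in every library. That named 640 of the 721 promoters, of which 579 belong to protein-coding genes. Another 26 are called by the annotated gene beside them. The 423 pairs included 335 between 2 different genes. They lay on 23 chromosomes, with a median gap of 205 bases. A promoter could face several others, and 109 of the 721 did, so the pairs form 304 separate clusters and 214 pairs share no promoter. Positions are the hg19 starts that the table gives.

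Depth differed between libraries. Promoter tags ran from 313300 in the third OTX015 library of AML3 to 2180812 in the second vehicle library of AML2, and the libraries numbered 3 were the shallowest of every group. In AML3 the drug-treated libraries numbered 3 also stood apart in composition. Ribosomal protein genes among the pairs summed to 30582 and 31749 CPM (counts per 1000000 promoter tags, scaled by TMM) in the first and second JQ1 libraries of AML3 and to 7972 in the third. With OTX015 the values were 26198, 24571 and 7879 CPM. Some counts are therefore also given for libraries 1 and 2 alone. Of 9 myeloid marker genes, 8 were listed, with summed levels of 1689 to 2685 CPM with vehicle and 478 to 1198 CPM with drug. All 6 erythroid and all 4 T cell markers were absent from the table, B cell markers summed to at most 2.90 CPM and megakaryocyte markers to at most 21.9 CPM. In bulk RNA a lower level can come from fewer cells of a kind or from less RNA per cell, and these cannot be told apart.

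The strands of a pair were usually unequal. With vehicle, the median fold between the mean levels of a pair's strands was 3.64 in AML2 and 3.51 in AML3. With drug it was 2.84 and 2.61 in AML2 (JQ1 and OTX015) and 2.44 and 2.60 in AML3. The strands were within 2-fold of each other in 125 pairs of 423 in AML2 with vehicle and in 172 in AML3 with JQ1. The stronger strand was the same in all 18 libraries in 168 pairs.

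Between the lines, some paired promoters had tags with vehicle in one line only, promoters of HOX genes and of SOCS2 among them. Of the 721 promoters, 685 passed the filter on low counts, in 380 complete pairs. With vehicle, 57 of the 685 were higher and 56 lower in AML3 than in AML2 (edgeR, adjusted p under 0.05). Of all 12867 promoters tested, 10.7% were higher and 11.3% lower. HOXA13, a posterior HOX transcription factor, had 30.6, 27.4 and 20.1 CPM in the vehicle libraries of AML3 and no tag in those of AML2, at least 33.8-fold higher against a floor of 3 tags over the group. HOTTIP, the noncoding RNA that faces it, had 10.8, 15.9 and 10.02 CPM in AML3 and none in AML2 (at least 15.2-fold). HOXB3 and the facing HOXB-AS3 were likewise at 0 in AML2, and at least 17.3- and 160-fold higher in AML3. The pair of SOCS2, an inhibitor of cytokine signalling, and SOCS2-AS1 went the other way. SOCS2-AS1 had 16.5, 16.3 and 1.31 CPM in AML2 with vehicle and no tag in AML3 (at least 15.4-fold lower). SOCS2 was at least 7.25-fold lower. The third library of AML2 was the lowest for both.

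Histone pairs differed between the lines in both directions. HIST3H2A, a histone H2A gene, had 517, 566 and 473 CPM in AML3 with vehicle and no tag in AML2. Its partner HIST3H2BB, an H2B gene, had 757, 718 and 597 CPM in AML3 and none in AML2. These are differences of at least 646- and 878-fold. HIST1H2BG was at 305, 204 and 317 CPM in AML2 and 978, 1084 and 2197 CPM in AML3 (log2 difference 2.37 ± 0.35 SE). Its partner HIST1H2AE was 2.85 ± 0.38 higher on the same scale. HIST1H2BM was at 4110, 4486 and 5882 CPM in AML2 and 1126, 1029 and 1711 CPM in AML3 (log2 difference -1.91 ± 0.42), and the promoter beside HIST1H2AJ that faces it was lower as well (-1.94 ± 0.44). For each of these promoters the vehicle libraries of the lines did not overlap. Histone genes are near-identical copies, and how tags that match several copies were handled is not given in the sources used here.

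With the drugs, many paired promoters moved. The shares were near those of all promoters, except that more were lower in AML3, 28.6% with JQ1 and 31.8% with OTX015. Unpaired promoters of the same width and total were lower in 25.1% and 27.2% there. Histone promoters made up 21 and 23 of the lower calls among the pairs in AML3. The excess was not tested. JQ1 raised 110 and lowered 138 of the 685 in AML2 (all promoters: 16.9% higher and 18% lower) and raised 181 and lowered 196 in AML3 (26.4% and 23.8%). OTX015 raised 130 and lowered 137 in AML2 (20.5% and 20%) and raised 183 and lowered 218 in AML3 (28.4% and 25.9%). The median log2 fold change of the paired promoters was -0.09 and -0.13 with JQ1 (AML2, then AML3) and -0.11 and -0.13 with OTX015. Over all promoters tested it was 0 and 0.03, and 0.02 and 0.02. The comparisons with the 2 drugs in a line share that line's vehicle libraries.

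The strands of a pair could rise together, fall together or part. With JQ1 in AML3, both promoters rose in 34 of 380 pairs, both fell in 39, and in 49 one rose while the other fell. The counts were 38, 52 and 50 with OTX015 in AML3. In AML2 they were 17, 23 and 8 with JQ1, and 29, 22 and 16 with OTX015. Between the lines with vehicle they were 14, 5 and 1. With libraries 1 and 2 alone the opposed pairs numbered 42 and 51 in AML3 and 12 and 15 in AML2, of 412 pairs tested. The opposed share with JQ1 in AML3 (12.9%) was 8.27% by DESeq2, 7.09% with no filter on low counts and 6.98% without the third JQ1 library of AML3. Same-strand neighbours chosen by the same widths, totals and distances serve as a reference, since they point the same way. They were not required to belong to different genes and can be 2 starts of 1 gene. Of the 423 facing pairs, 335 join 2 different genes, so the sets differ in this too. Of 1674 such neighbours tested, 1.85% were opposed with each drug in AML3, against 12.9% and 13.2% of the facing pairs. In AML2 the shares were 0.836% and 0.896% against 2.11% and 4.21%. Head-to-head pairs of other widths with 100 tags on each side were opposed in 11.1% and 12.1% in AML3 and 4.38% and 6.90% in AML2. In AML2 both rose in 4.47% and 7.63%, 3.37% and 5.22%, and 8.90% and 10.5%, in the same order of sets. Both fell in 6.05% and 5.79%, 4.88% and 6.40%, and 12.4% and 14.5%. Between the lines both were higher in 3.68%, 2.53% and 6.03%, and both lower in 1.32%, 1.85% and 5.56%. The differences from the reference sets were not tested.

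**Figure D1:**
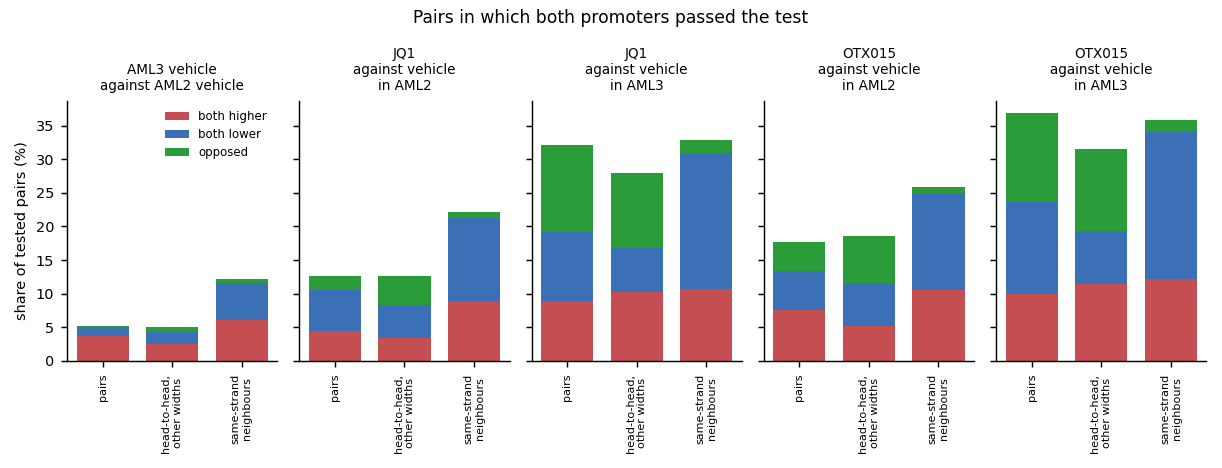
Share of tested pairs (%) in which both promoters were higher, both lower or opposed (edgeR, adjusted p under 0.05), as stacked bars for the pairs of medium width, head-to-head pairs of other widths and same-strand neighbours, in 5 comparisons. Opposed pairs make up 12.9% and 13.2% of the medium-width pairs in AML3 with JQ1 and OTX015 and 1.85% of the same-strand neighbours.

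Across the 380 pairs, the log2 fold changes of the facing promoters had a Pearson r of 0.74 between the lines (0.65 without histone genes, Spearman 0.32), 0.32 for each drug in AML2, and 0.25 and 0.24 for JQ1 and OTX015 in AML3. Same-strand neighbours gave 0.83, 0.64 and 0.63, and 0.66 and 0.67. Head-to-head pairs of other widths gave 0.48, 0.10 and 0.11, and 0.08 and 0.11. Between the lines their Spearman value was 0.31, near that of the medium-width pairs, and that of same-strand neighbours was 0.58. These values describe the pairs, which share libraries and, in part, promoters, and same-strand neighbours can be starts of 1 gene. In AML3 with JQ1, r was -0.08 in the 74 pairs with a gap of at most 100 bases and 0.27 to 0.34 in the classes with wider gaps.

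**Figure D2:**
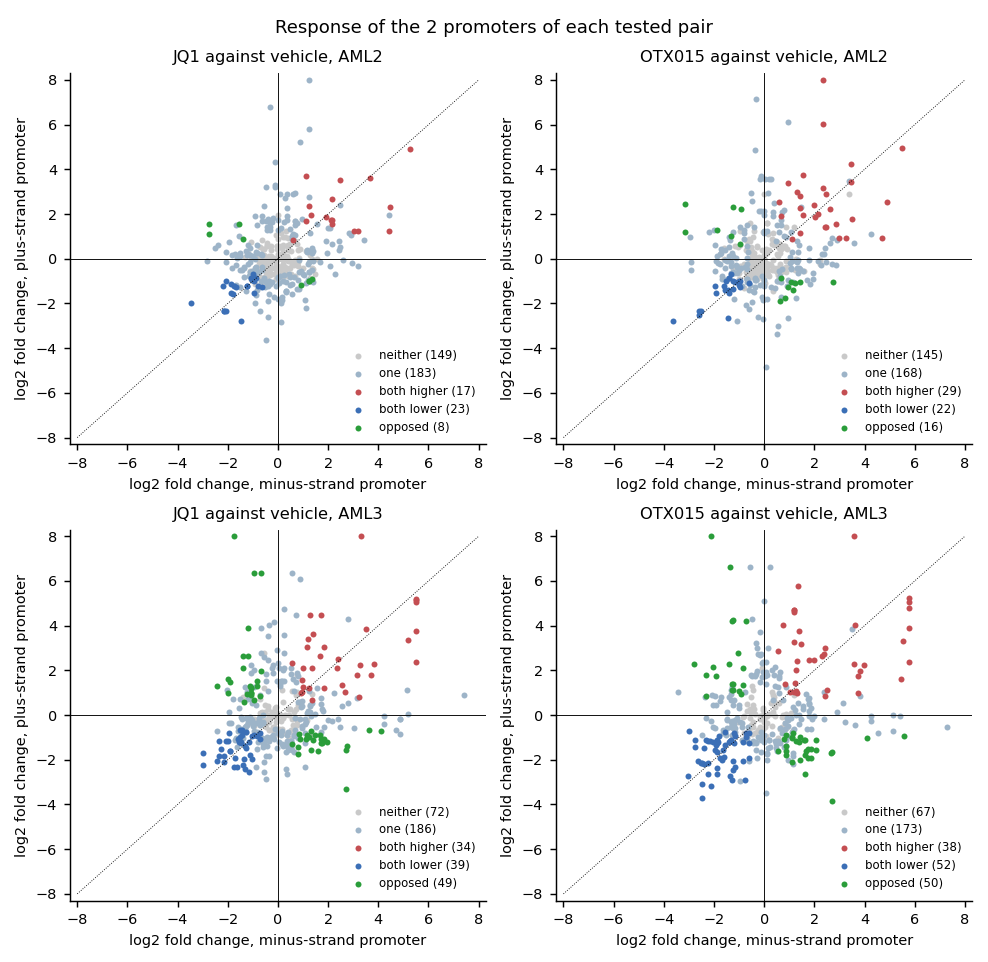
Log2 fold change of the minus-strand promoter (x axis) against that of the plus-strand promoter (y axis) for the 380 tested pairs, in 4 panels for JQ1 and OTX015 in AML2 and AML3, coloured by which strands were called; values past 8 are drawn at 8 and the dotted line is equality. The upper left and lower right hold 8 and 16 opposed pairs in AML2 (JQ1 and OTX015) and 49 and 50 in AML3.

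The balance between strands was tested directly, by comparing the ratio of plus to minus tags of each pair between groups (edgeR, adjusted over 1217 head-to-head pairs). It shifted in 113 of the 380 pairs with JQ1 in AML2 (26.1% of all tested) and in 180 with JQ1 in AML3 (48.4%). With OTX015 it shifted in 130 in AML2 (32.6%) and 196 in AML3 (51.4%). Between the lines it differed in 13 pairs (3.04%). The strands were ranked by the vehicle libraries of the other line. The same libraries thus did not set both the rank and the change. The choice of members did use the drug libraries, since the tag total includes them. By that rank, 85 of the 113, 157 of the 180, 105 of the 130 and 167 of the 196 shifts went toward the weaker strand. Of the opposed pairs, the weaker strand rose and the stronger fell in 7 of 8 and 46 of 49 with JQ1 (AML2 and AML3). With OTX015 they did so in 14 of 16 and 47 of 50. A strand that was weak with vehicle could enter by its tags with drug. The rule itself therefore favours shifts toward the weaker strand, and how far it set these counts was not tested. The direction was not counted over other head-to-head pairs.

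Promoters without a partner also moved by level. For JQ1 in AML3, promoters were grouped by their level in the vehicle libraries of AML2. Under 2 CPM the median log2 fold change was 3.06 for the weaker strands of pairs (n = 47), 2.79 for the stronger strands (n = 9) and 2.17 for unpaired promoters (n = 391). Between 5 and 20 CPM the medians were 0.42, 0.09 and 0.30 in that order. Above 20 CPM they were -0.54, -0.73 and -0.52. By the rule used here, a promoter with few tags with vehicle entered these sets only if it had at least 100 tags over all libraries. That choice favours promoters that rise elsewhere. The part of level in the shift toward the weaker strand was not tested.

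Core histone genes, which package newly made DNA, fell in AML3 with each drug. Of 24 histone promoters tested, JQ1 lowered 21 and OTX015 lowered 23 in AML3, and neither raised one. Of all promoters tested, 23.8% and 25.9% were lower in AML3 with JQ1 and OTX015, and 18% and 20% in AML2. In AML2 JQ1 lowered 2 histone promoters and raised 1, and OTX015 lowered 3 and raised 1, shares below those of all promoters. The AML2 counts depend on the setting. Without the first or the second AML2 vehicle library, each drug lowered 1, with libraries 1 and 2 alone each lowered 4, OTX015 lowered 5 with a replicate block and JQ1 lowered 5 with only the groups compared. HIST1H2BL was at 2860, 2965 and 4154 CPM in AML3 with vehicle, at 1053, 997 and 587 with JQ1 and at 724, 634 and 436 with OTX015. The log2 fold changes were -1.92 ± 0.42 and -2.47 ± 0.43. In AML2 it was at 4096, 4212 and 4821 CPM with vehicle and 5003, 5233 and 3003 with JQ1, a log2 fold change of 0.01. The partner HIST1H2AI, an H2A gene, fell by 1.62 and 2.15 on the log2 scale in AML3 with JQ1 and OTX015. HIST3H2BB went from 757, 718 and 597 CPM to 251, 212 and 65.0 with JQ1 and 195, 153 and 62.2 with OTX015. All drug libraries of AML3 lay below all vehicle libraries for these genes.

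The median log2 fold change of the histone promoters was -1.60 and -2.10 in AML3, and -0.36 and -0.44 in AML2. With libraries 1 and 2 alone it was -1.04 and -1.76 in AML3, with 21 of 24 lower for each drug, and -0.06 and -0.04 in AML2. Histone promoters of the pairs summed to 43482 to 69167 CPM in AML3 with vehicle, 20603, 19352 and 12212 with JQ1, and 14830, 13572 and 9678 with OTX015. In AML2 they summed to 68075, 73520 and 82324 CPM with vehicle, 60806, 66195 and 44149 with JQ1, and 63718, 67604 and 29957 with OTX015. The libraries numbered 3 were the lowest with each drug in each line. Without histone genes, 365 pairs remained, and both promoters fell in 28 and 39 of them in AML3 (JQ1 and OTX015), against 39 and 52 of the 380. A difference between the lines was called for 3 histone promoters with JQ1 and 7 with OTX015, all with the lower effect in AML3. Of all promoters, 3.35% and 4.25% were called in that direction.

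**Figure D3:**
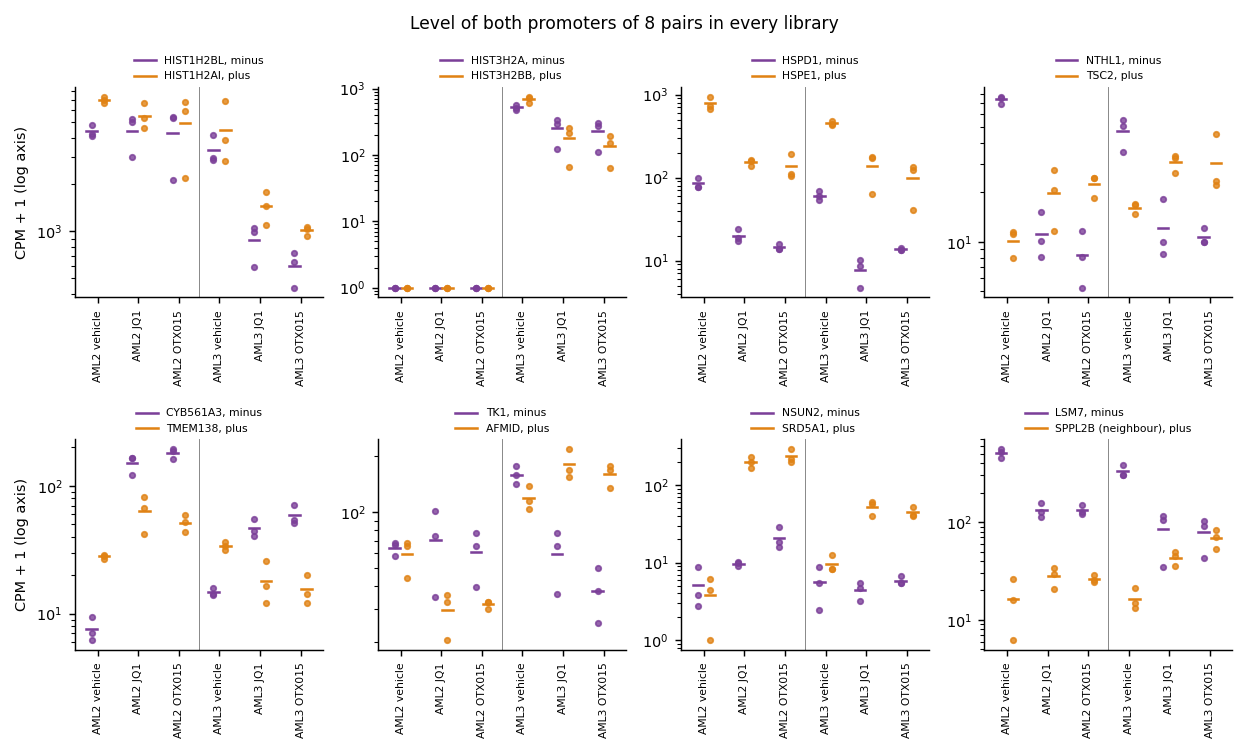
Levels of 8 pairs in each library on a log axis of CPM + 1, with points for libraries and bars for group means, the minus and plus promoters in different colours and a vertical line between AML2 and AML3. HIST1H2BL and HIST1H2AI fall in AML3 with drug, HSPD1 and HSPE1 fall in both lines, and NTHL1 falls while TSC2 rises.

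Most promoters of genes for mitochondrial protein making were lower with drug in both lines. Of 27 promoters of mitochondrial translation genes, JQ1 lowered 18 in AML2 and 19 in AML3, and OTX015 lowered 18 and 20. Each drug raised 1 in AML2 and 2 in AML3. The shares of all promoters that were lower are 18% and 23.8% with JQ1 (AML2 and AML3) and 20% and 25.9% with OTX015. MRPL51, a mitochondrial ribosomal protein, went from 120.1, 61.2 and 87.5 CPM to 39.0, 45.4 and 37.3 with JQ1 in AML2. In AML3 it went from 78.0, 82.2 and 109 to 39.8, 36.5 and 14.9. The vehicle and drug libraries did not overlap, and the log2 fold changes were -1.11 ± 0.29 and -1.46 ± 0.30. OTX015 gave -1.36 and -1.95 (AML2 and AML3). MRPL30 used 2 starts that parted. The main start at 99797636 fell by 0.80 and 0.82 on the log2 scale with JQ1, and the start at 99797607, just upstream, rose by 1.73 and 2.33.

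Of 22 tested promoters that face this group, JQ1 lowered 6 and raised 0 in AML2, and lowered 8 and raised 6 in AML3. OTX015 lowered 9 and raised 2, and lowered 10 and raised 7. The 6 and 7 higher in AML3 stand beside 26.4% and 28.4% of all promoters, which is near the same share. The difference between the group and its partners was not tested.

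Most chaperone promoters were lower with drug in both lines, and the pair of HSPD1 and HSPE1 ranked first among pairs with both promoters lower with JQ1. Of 19 promoters, 12 fell in AML2 with each drug and 13 and 14 fell in AML3 with JQ1 and OTX015, where 1 rose. Lower calls made up 18% and 20% of all promoters in AML2 and 23.8% and 25.9% in AML3. HSPD1 and HSPE1 encode Hsp60 and Hsp10, the chaperonin and co-chaperonin of the mitochondrial matrix. HSPE1 (198365095) was at 945, 674 and 733 CPM in AML2 with vehicle, 159, 164 and 139 with JQ1 and 111, 192 and 102 with OTX015. In AML3 it was at 440, 479 and 431 CPM, then 171, 175 and 63.2 with JQ1 and 131, 122 and 40.0 with OTX015. The facing HSPD1 start (198364581) was at 76.6, 76.9 and 99.3 CPM in AML2 with vehicle and 16.0, 17.8 and 23.1 with JQ1. In AML3 it was at 52.2, 59.2 and 67.3, then 9.04, 7.51 and 3.72 with JQ1. The groups did not overlap for either gene. The log2 fold changes with JQ1 were -2.34 ± 0.36 and -1.70 for HSPE1 and -2.16 ± 0.25 and -2.99 ± 0.30 for HSPD1. CCT6A, a subunit of the cytosolic chaperonin, had -1.27 and -1.06 with JQ1.

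Most ribosome assembly promoters were lower with drug in both lines. Of 14 promoters, JQ1 lowered 9 and 10 (AML2 and AML3) and OTX015 lowered 11 and 11, and none rose, against 18% and 23.8% of all promoters lower with JQ1 and 20% and 25.9% with OTX015. MRTO4, an assembly factor of the large subunit, went from 87.0, 89.8 and 140 CPM to 13.8, 22.2 and 26.7 with JQ1 in AML2 (log2 fold change -2.34 ± 0.29). In AML3 it went from 56.4, 60.1 and 41.5 to 14.5, 10.7 and 11.1 (-2.10 ± 0.33). NOP16, another such factor, had -2.06 and -1.97 with JQ1, and BRIX1 -1.56 and -1.84. Of 15 cytosolic ribosomal protein promoters, each drug lowered 4 in AML2, where 18% and 20% of all promoters were lower, and JQ1 lowered 9 and OTX015 11 in AML3, with none higher. With libraries 1 and 2 alone, 9 and 10 of the 15 were lower in AML2 and 11 and 12 in AML3. RPL27A, of the pair with most tags, was at 10257, 10471 and 9042 CPM in AML3 with vehicle and 4829, 5445 and 1184 with JQ1 (log2 fold change -1.38, adjusted p = 0.02618). The facing TRIM66 start rose from 6.60, 8.84 and 10.02 CPM to 47.9, 50.4 and 74.3 (2.77 ± 0.31).

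Of 25 promoters of respiratory chain and citric acid cycle genes, 9 and 12 were lower with JQ1 in AML2 and AML3 and 10 and 13 with OTX015, and at most 1 was higher. NDUFS3, a subunit of complex I, had log2 fold changes of -1.25 and -1.18 with JQ1, and SDHD, a subunit of complex II, had -1.01 and -0.95. Of 25 promoters of splicing and 3′ end processing genes, 8 and 11 were lower with JQ1 and 6 and 10 with OTX015, and at most 3 were higher. With 18% and 23.8% of all promoters lower with JQ1 and 20% and 25.9% with OTX015, the 6 of 25 in AML2 are near that share. LSM7, a subunit of the Lsm rings that bind U6 and decaying messenger RNAs, was at 519, 559 and 452 CPM in AML2 with vehicle and 125, 156 and 112 with JQ1. In AML3 it was at 383, 299 and 305, then 105, 114 and 33.5. The log2 fold change was -1.96 in each line. These gene groups were drawn up from the names of the paired genes with earlier results known, so their counts are descriptions.

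**Figure D4:**
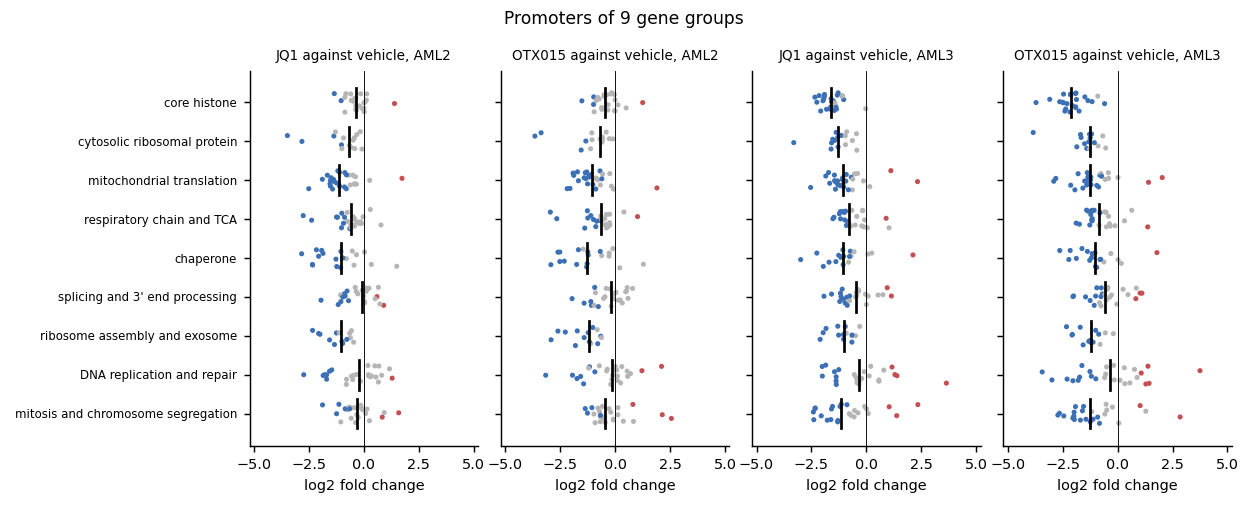
Log2 fold change of each tested promoter in 9 gene groups of the pairs, one panel for each drug and line, with red points higher, blue points lower, grey points not called (edgeR, adjusted p under 0.05) and a black line at the group median. Histone genes lie below 0 in AML3 (medians -1.60 and -2.10) and near it in AML2 (-0.36 and -0.44), and mitochondrial translation genes have medians of -1.07 to -1.23.

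Promoters of genes for DNA replication, repair and mitosis were called in both directions. Of 26 replication and repair promoters, JQ1 lowered 7 and 8 and raised 1 and 4 (AML2 and AML3). OTX015 lowered 7 and 10 and raised 2 and 5. Among all promoters JQ1 lowered 18% and 23.8% and raised 16.9% and 26.4%, and OTX015 lowered 20% and 25.9% and raised 20.5% and 28.4%. Each lower count is a few promoters above the matching share, and each higher count a few below. ORC1, the largest subunit of the origin recognition complex, went from 17.4, 20.8 and 14.4 CPM to 9.17, 4.45 and 1.78 with JQ1 in AML2. In AML3 it went from 15, 8.84 and 10.02 to 1.81, 3.22 and 5.58. The log2 fold changes were -1.70 ± 0.47 and -1.85 ± 0.56. APEX1, the abasic site endonuclease, had -1.57 and -1.38. Of 25 mitosis promoters, JQ1 lowered 5 in AML2 and 14 in AML3, and OTX015 lowered 4 and 16. JQ1 raised 2 and 3, and OTX015 raised 3 and 2. The 5 and 4 lower in AML2 are near the share of all promoters. The difference between the lines was not tested over the group. KIF15, a spindle kinesin, was at 16.8, 19.4 and 20.1 CPM in AML3 with vehicle and 1.81, 2.14 and 9.29 with JQ1 (log2 fold change -2.33 ± 0.50). In AML2 it was at 8.70, 8.98 and 13.1 CPM with vehicle and 9.17, 12.5 and 8.89 with JQ1, and was not called. The log2 difference between the JQ1 effects, AML3 minus AML2, was -2.41 ± 0.68 (adjusted p = 0.02842). MZT1, a component of the gamma-tubulin ring complex, and BORA, an activator of mitotic kinases, face each other and fell together. The changes with JQ1 were -1.89 and -1.31 for MZT1 and -1.14 and -2.39 for BORA. MAU2, a cohesin loader, rose by 0.83 and 1.04 with JQ1.

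TK1 and AFMID had the smallest adjusted p among pairs whose balance responded differently in the lines. TK1 is the cytosolic thymidine kinase, an S phase enzyme, and AFMID is a formamidase of tryptophan breakdown. TK1 went from 141, 156 and 176 CPM to 65.1, 76.1 and 35.3 with JQ1 in AML3 (log2 fold change -1.37 ± 0.29) and from 67.0, 57.2 and 65.3 to 100.8, 73.8 and 33.8 in AML2 (0.18, not called). AFMID went from 137, 113 and 103 CPM to 168, 153 and 217 in AML3 (0.59 ± 0.23) and from 64.4, 67.3 and 43.1 to 32.1, 34.7 and 19.6 in AML2 (-0.99 ± 0.27). So the TK1 strand fell and the AFMID strand rose in AML3, and AFMID fell in AML2. With JQ1 the balance moved toward AFMID in AML3 (1.98 ± 0.38 on the log2 scale) and toward TK1 in AML2 (-1.14 ± 0.43, adjusted p = 0.0413). The difference, AML3 minus AML2, was 3.12 ± 0.57 (adjusted p = 0.00195). With OTX015 AFMID was not called in AML3 (0.43, adjusted p = 0.1095), and the difference between lines in the balance was 3.40 ± 0.59. Such a difference between lines was called in 6 of the 380 pairs with each drug (0.904% of all pairs tested with JQ1 and 0.74% with OTX015).

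NTHL1 and TSC2 ranked first among opposed pairs in AML2 and had the smallest adjusted p of strand balance there. NTHL1 is a DNA glycosylase that removes oxidised pyrimidines, and TSC2 (tuberin) holds back mTOR complex 1. NTHL1 went from 75.7, 68.5 and 74.4 CPM to 9.17, 14.2 and 7.11 with JQ1 in AML2 and from 49.8, 53.9 and 34.4 to 9.04, 17.2 and 7.43 in AML3. The log2 fold changes were -2.74 ± 0.30 and -2.0 ± 0.31. The TSC2 start at 2097970 went from 6.96, 10.1 and 10.4 CPM to 26.4, 19.6 and 10.7 in AML2 (1.09 ± 0.36) and from 13.8, 15.9 and 15.8 to 25.3, 32.2 and 31.6 in AML3. The start at 2098003 rose from 1.74, 4.49 and 9.14 to 12.6, 15.1 and 14.2 CPM in AML2 and from 12.6, 7.95 and 7.16 to 21.7, 33.2 and 39.0 in AML3. The stronger strand was NTHL1 in every vehicle library and TSC2 in every drug library. OTX015 gave log2 fold changes of -3.16 and -2.30 for NTHL1 and 1.19 and 0.86 for the TSC2 start at 2097970.

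Other pairs named for opposed calls follow. KARS, the lysyl-tRNA synthetase, went from 131, 167 and 154 CPM to 65.3, 48.9 and 56.9 with JQ1 in AML2 (log2 fold change -1.41). The facing TERF2IP, which encodes the shelterin subunit RAP1, went from 13.9, 13.5 and 14.4 to 22.9, 25.8 and 30.2 (0.90). AIMP1 (107237688), a scaffold of the tRNA synthetase complex, had -0.99 in AML2 and -1.08 in AML3 with JQ1, and the facing TBCK start (107237374) had 1.25 and 1.70. SF3B3, a subunit of the U2 snRNP, had -0.90 and -1.05, and COG4, a Golgi tethering factor, 1.35 and 1.12. Opposite LSM7, the start beside SPPL2B rose in AML3 from 13.8, 12.4 and 20.1 CPM to 34.4, 44.0 and 48.3 with JQ1 (1.48) and was not called in AML2. A minor RPS27A start at 55459786 fell by 2.82 and 3.37 with JQ1 (AML2 and AML3), and CLHC1 opposite rose by 2.70 in AML3. That start holds 0.80% of the tags of RPS27A.

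TAGLN2, an actin-binding protein, went from 415, 622 and 543 CPM to 191, 138 and 136 with JQ1 in AML3 (log2 fold change -1.76). An unnamed start opposite it (159895402) had no tag in any vehicle library. It had 13.8, 7.12 and 28.5 CPM with JQ1 in AML2 and 16.3, 22.5 and 91.1 in AML3, at least 17.3- and 39.8-fold higher than the floor of 3 tags over the vehicle group. With OTX015 the lower bounds were 21.6 and 48.4.

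SRD5A1 (6633534), a steroid 5-alpha reductase, went from 3.48, 5.05 and 0 CPM to 167, 195 and 231 with JQ1 in AML2 (log2 fold change 5.79 ± 0.37) and from 7.20, 11.5 and 7.16 to 59.7, 55.8 and 39.0 in AML3 (2.59 ± 0.34). Its second start at 6633657 had no tag in AML2 with vehicle and 96.3, 80.1 and 233 CPM with JQ1, at least 147-fold higher. In AML3 that start had at most 1.81 CPM in any library. The facing NSUN2 start (6633397), of an RNA methyltransferase, rose with OTX015 in AML2 from 1.74, 2.81 and 7.83 CPM to 17.7, 14.6 and 27.7 (2.35 ± 0.49), and was not called with JQ1 (adjusted p = 0.08194).

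CYB561A3, an ascorbate-dependent reductase of lysosomes, and TMEM138, a ciliary membrane protein, rose together in AML2 and parted in AML3. CYB561A3 went from 6.09, 8.42 and 5.22 CPM to 164, 165 and 121 with JQ1 in AML2 (4.42 ± 0.28) and from 15, 13.3 and 12.9 to 43.4, 39.7 and 53.9 in AML3 (1.68 ± 0.28). TMEM138 rose from 27.9, 25.8 and 27.4 CPM to 66.5, 80.9 and 40.9 in AML2 (1.26 ± 0.26) and fell in AML3 from 30.6, 35.3 and 32.9 to 15.4, 24.7 and 11.2 (-0.89 ± 0.30). The difference between the lines in the JQ1 effect was -2.74 ± 0.41 for CYB561A3 and -2.15 ± 0.39 for TMEM138. USP53, a tight junction protein related to deubiquitinases, rose further in AML3. It went from 22.2, 15 and 22.9 CPM to 301.1, 292 and 223 with JQ1 in AML3 (3.77 ± 0.29) and from 2.61, 6.17 and 2.61 to 11.5, 14.2 and 3.56 in AML2 (1.31, adjusted p = 0.02948). The facing noncoding LOC101929762 had no tag in AML2 and went from 0, 0.884 and 1.43 CPM to 32.5, 36.5 and 26.0 in AML3.

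HLX, a haematopoietic homeobox gene, rose in AML2 at its start at 221052994 from 3.48, 8.98 and 3.92 CPM to 32.1, 56.0 and 26.7 with JQ1 (log2 fold change 2.69 ± 0.47). The unnamed start that faces it rose by 2.14 ± 0.41. SOCS2-AS1 and SOCS2 rose by 2.13 and 1.74 in AML2 with JQ1 and had no tag in AML3 in any library. The HOX pairs absent from AML2 rose further in AML3. HOXB3 went from 12.6, 17.7 and 11.5 CPM to 163, 183 and 214 with JQ1 (3.71 ± 0.26) and HOXB-AS3 from 121, 116 and 173 to 505, 522 and 381 (1.79 ± 0.29). HOXA13 and HOTTIP rose by 0.92 and 0.98.

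Several pairs changed which strand was stronger. Counting pairs in which every drug library had the other strand stronger than every vehicle library, there were 21 and 28 of 423 in AML2 (JQ1 and OTX015) and 40 and 58 in AML3. The 423 include 43 pairs that were not tested because of low counts. Other head-to-head pairs were not counted, so no share stands beside these. In 7 pairs the stronger strand changed in this way with both drugs in both lines. They were NTHL1 with each of 2 TSC2 starts, CYB561A3 with TMEM138, RABL2B with RPL23AP82, the start beside SERP1 with EIF2A, and SDE2 and KLF6 each with an unnamed start. SDE2, a genome stability factor, faced a start at 226187309 that rose from 7.83, 8.42 and 10.4 CPM to 55.0, 63.2 and 151 with JQ1 in AML2. In AML3 that start rose from 4.80, 3.53 and 7.16 to 118, 87.9 and 214. The mean log2 ratio of plus to minus went from -2.47 to 0.77 in AML2 and from -3.29 to 1.11 in AML3. EIF2A, a translation initiation factor, fell by 1.22 and 1.15 with JQ1, and the ratio went from 0.86 to -0.35 and from 1.08 to -0.70.

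**Figure D5:**
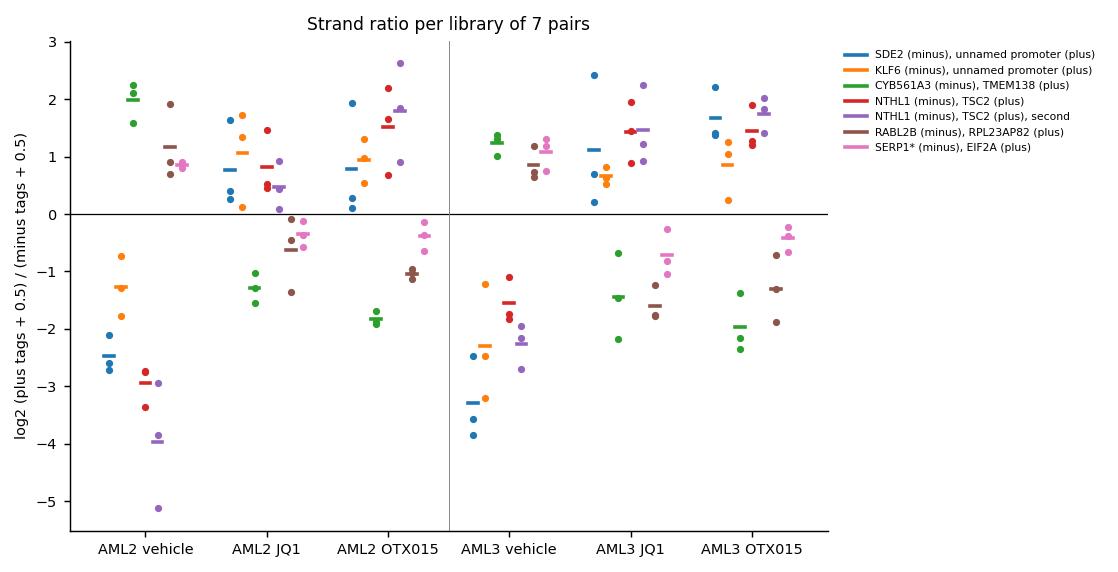
Log2 ratio of plus to minus tags (with 0.5 added to each) in every library, for the 7 pairs in which the stronger strand was the other one in all drug groups; points above 0 have the plus strand stronger, and an asterisk marks a promoter named by the gene beside it. Vehicle and drug libraries lie on opposite sides of 0 in each pair, for example at means of -2.95 and 0.81 for NTHL1 and TSC2 in AML2 with vehicle and JQ1.

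WDR1, which encodes an actin disassembly factor, had the smallest adjusted p of strand balance in AML3. The unnamed plus-strand start at 10118705 rose in AML3 from 1.80, 1.77 and 1.43 CPM to 87.7, 129 and 251 with JQ1 (log2 fold change 6.36) and in AML2 from 3.48, 4.49 and 6.53 to 20.6, 21.3 and 74.7 (2.91). The WDR1 start at 10118348 had 70.8, 53.9 and 65.9 CPM in AML3 with vehicle and 28.0, 34.3 and 39.0 with JQ1 (-0.94). STIP1, a co-chaperone that links Hsp70 and Hsp90, was opposite a start at 63953135 that rose by 2.08 and 4.11 with JQ1. H3F3A, which encodes the replacement histone H3.3, was not called in any drug comparison, and the start opposite it (226250187) rose by 1.96 and 5.19.

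Many calls were common to both lines. Of the 113 and 180 pairs whose balance shifted with JQ1 in AML2 and AML3, 85 were common (75.2% and 47.2%), and 84 of them shifted the same way. With OTX015, 108 were common to 130 and 196 (83.1% and 55.1%), all in the same direction. Of the paired promoters that rose, 83 were common with JQ1 and 95 with OTX015, and of those that fell, 94 and 108. The overlap was not counted over all promoters or all head-to-head pairs, so whether it is particular to these pairs was not tested. A difference in response between the lines was called for 14 promoters in the positive and 12 in the negative direction with JQ1, and for 17 and 17 with OTX015. Of all promoters, 2.3% and 3.35% were called with JQ1 and 2.26% and 4.25% with OTX015.

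OTX015 and JQ1 were compared directly in each line, with the caveat that their doses are not given. No paired promoter and no strand balance was called in AML2 or in AML3 by edgeR (0% of all promoters and of all pairs). DESeq2, run on promoters alone, called 0 paired promoters in each line, and 1 of all promoters in AML2. At an unadjusted p under 0.05 there were 15 and 12 promoters and 5 and 8 pairs. The median size of the log2 difference was 0.21 in AML2 and 0.24 in AML3, and its median SE was 0.39 and 0.38. The difference with 2 SE on each side stayed within 1 on the log2 scale for 333 of 677 promoters in AML2 and 327 of 683 in AML3. For NTHL1 it was -0.42 ± 0.43 and -0.29 ± 0.42. For TAGLN2 it was -0.02 ± 0.28 in AML2, within -0.57 to 0.54 at 2 SE. For TK1 in AML3 it was -0.66 ± 0.32, within -1.31 to -0.01 at 2 SE. For the other promoters the interval reached past a log2 difference of 1, so the comparison does not show that the drugs act alike.

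The promoter windows of the paired genes were richer in CpG than RefSeq windows at large. RefSeq windows, here the 250 bases before the start in GRCh38.p14, were found for 447 of 540 gene symbols. Their median GC content was 63.6% and their median ratio of observed to expected CpG was 0.894, against 58.0% and 0.556 over all 27305 windows. The paired genes were chosen for their tags, and unpaired genes with as many tags were not scored. The contrast is therefore not particular to facing genes as far as was tested. Windows of facing genes can overlap, so some sequence was counted in 2 windows. GGGCGG was present on either strand in 63.1% (42.3% of all windows), CCAAT in 43.2% (33.0%) and CCGGAAG in 23.9% (8.82%). AAGATGGC, the YY1 core, was in 7.61% (1.37%), TGACGTCA in 6.94% (1.77%), GCATGCGC, the NRF1 core, in 7.16% (2.81%) and CACGTG in 11.6% (6.49%). TATAAA was less frequent, in 5.82% (11.1%). The motifs do not overlap one another by more than a few letters, and a match is a description, not a binding site. Of 14 histone windows, all held CCAAT, 11 held TATAAA and none GGGCGG, and their median GC content was 41.4%. Of 113 stretches of 20 to 250 bases between facing RefSeq starts, the 6 of histone pairs all held at least 2 CCAAT, as in the sequences printed above. Of the 107 others, 62 held a GC box, 41 a CCAAT and 2 a TATAAA.

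Of gene pairs known from textbooks, 11 were tested as whole genes from the gene table, HSPD1 and HSPE1 among them. JQ1 lowered 10 of the 22 genes and raised 4 in AML2 (17.3% and 17.2% of all genes tested), and lowered 11 and raised 2 in AML3 (23.9% and 26.7%). OTX015 lowered 12 and raised 3 in AML2 (19.9% and 20.3%), and lowered 12 and raised 4 in AML3 (26.2% and 28.7%). Both genes fell in 3 and 4 pairs with JQ1 and in 4 and 4 with OTX015, and both rose in 1 and 1 with JQ1 and in 1 and 2 with OTX015. None of the 11 was opposed in any of these comparisons.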

How the data were processed

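The authors deposited counts, whole numbers of CAGE tags per promoter and per gene that were not normalized, for 18 libraries. STAR and the hg38 build are named in the submitters' processing notes, with no versions. For the promoter definition, the counting tool and the handling of tags that match several sites, nothing is stated in the labels or file headers. All 721 paired promoters carry hg19 coordinates in their names, which were not converted. Of the hg19-named promoters 8.05% lay within 500 bases of a GRCh38 start, against 78.6% of those named in hg38, so the names are in different builds.

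Counts were tested with edgeR 4.0.16 (R 4.3.3): filterByExpr, TMM factors and a quasi-likelihood fit over all 6 groups, with Benjamini-Hochberg adjustment over the 12867 promoters tested and a threshold of 0.05. CPM are counts per 1000000 promoter tags, scaled by TMM, and ± with a log2 fold change is its SE. The strand balance of head-to-head pairs was fitted in the same way on plus and minus counts of 1217 pairs. Scripts were tested on simulated counts. DESeq2 1.42.0 and limma 3.58.1 were alternatives. Promoter tags per library ran from 313300 to 2180812, and because tags carry no molecular identifiers the floors of 3 tags cover counting error only.

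The members, the gene groups and the naming of promoters by summed counts were chosen with earlier results of these data known. Pairs were named by rule: up to 3 pairs each with both promoters higher, both lower or opposed, ranked by the smaller change, up to 3 by the adjusted p of the strand balance, the 4 with most tags and the 3 most equal and most unequal. The gene group examples, the HOX pairs, the pair of MZT1 and BORA and the pairs that changed their stronger strand lie outside that rule and were chosen after their values were seen. Some pairs that the rule names are not described here. Between OTX015 and JQ1 libraries of the same number, the correlation of deviations was 0.112, 0.126 and 0.292 for numbers 1 to 3 in AML2. In AML3 it was 0.304, 0.277 and 0.536. Of 6 libraries, 3 in AML2 and 4 in AML3 correlated best with their own number, which does not show that numbers pair libraries. A block on the number changed no call between these drugs.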

Additional observations from a re-analysis of the deposited data

Results flagged for a closer look

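The values below are differences between the lines in the response to a drug, AML3 minus AML2 on the log2 scale, that passed edgeR's test of the difference itself. They are given with their SE and adjusted p, for the named pairs.

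The response of the balance of TK1 and AFMID differed between the lines, positive values being toward AFMID in AML3, by 3.122 ± 0.57 with JQ1 (adjusted p = 0.00195) and 3.396 ± 0.59 with OTX015 (0.0005959). Each gene also differed. TK1, the thymidine kinase, had -1.556 ± 0.41 with JQ1 (0.01774) and -2.008 ± 0.43 with OTX015 (0.002959). AFMID, the formamidase, had 1.582 ± 0.35 (0.004389) and 1.37 ± 0.36 (0.0154). The balance of WDR1 and the unnamed start opposite it shifted further in AML3 by 4.542 ± 0.93 with JQ1 at the WDR1 start 10118348 (0.004632) and 4.672 ± 0.93 at the start 10118405 (0.004632). With OTX015 the shift at 10118348 was 4.327 ± 0.93 larger (0.01124).

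The response of some histone promoters was lower in AML3 than in AML2, 3 of 24 with JQ1 and 7 of 24 with OTX015. The difference was -1.93 ± 0.59 for HIST1H2BL (0.04449) and -2.279 ± 0.57 for HIST1H2AK (0.01261) with JQ1. With OTX015 it was -2.448 ± 0.59 for HIST1H2BL (0.008285), -2.528 ± 0.58 for HIST1H2AK (0.005296), -2.225 ± 0.58 for HIST1H2BM (0.01563), -1.787 ± 0.51 for the promoter beside HIST1H2BN (0.02984) and -1.761 ± 0.52 for HIST1H2BO (0.03439). KIF15, the spindle kinesin, had -2.407 ± 0.68 with JQ1 (0.02842) and -2.846 ± 0.73 with OTX015 (0.01343). TAGLN2, the actin-binding protein, had -1.442 ± 0.39 (0.02142) and -1.788 ± 0.40 (0.003933).

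Responses that were larger in AML2 included SRD5A1, the steroid reductase, with -3.202 ± 0.56 with JQ1 (0.0003233) and -3.707 ± 0.56 with OTX015 (5.062e-05). CYB561A3 had -2.736 ± 0.41 (4.906e-05) and -2.617 ± 0.41 (7.219e-05). TMEM138, which rose in AML2 and fell in AML3, had -2.145 ± 0.39 (0.000584) and -2.042 ± 0.41 (0.001605). Rises that were larger in AML3 included USP53 with 2.459 ± 0.59 (0.008772) and 1.936 ± 0.57 (0.03582). The long noncoding RNA AC015912.3, opposite the ubiquitin ligase gene TRIM25, had 2.964 ± 0.57 (0.0008833) and 3.191 ± 0.56 (0.0002863). The promoter beside SPPL2B had 1.525 ± 0.47 with OTX015 (0.04645).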

How the results depend on the processing

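Promoters of the pairs named by rule for calls in both promoters gave 74 results, over the line and drug comparisons. All 74 kept 1 sign over the alternatives and 69 stayed past the threshold in all of them, and of 21 strand balance results 17 did. These pairs were picked for large changes. Results outside that set were not checked this way, among them most gene group examples, the HOX pairs and the differences in response of single promoters. Among those that missed the threshold somewhere were HIST1H2BM (27782876), the balance between the lines at TRIM25 and ATP5ME, TERF2IP, TSC2 (2097970), TBCK (107237374) and COG4, and WDR1 with OTX015 (adjusted p = 0.05049 without the second AML2 vehicle library).

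Counts moved more. Opposed pairs between the lines (0.263%) became 0 with gaps of at most 200 bases, with 300 or more tags or without shared promoters. With 300 or more tags, opposed pairs in AML2 were 3.64% with JQ1 and 6.36% with OTX015. DESeq2 gave 8.27% for JQ1 in AML3 and 2.36% for OTX015 in AML2. Without a low-count filter they were 1.18% and 7.09% with JQ1 (AML2 and AML3) and 2.13% with OTX015 in AML2, 16 and 22 promoters differed in response between the lines (JQ1 and OTX015), and balance was called in 1.65% between the lines, 16.8% and 21.3% in AML2 and 0.709% for the OTX015 difference. With only the groups compared, both promoters were called in 10.3% between the lines, with 1.65% opposed, and JQ1 in AML2 gave 4.41% opposed. Libraries 1 and 2 alone gave 181 promoters between the lines, 8.98% of pairs with both called and 1.46% opposed, 1 promoter between OTX015 and JQ1 in AML2, 73 and 82 promoters for the differences in response, r = 0.688 between the lines, and balance calls of 6.32%, 5.53% and 5.0%. limma with 0.5 added gave 2.11% for balance between the lines, and with 2 added 2.89% and 3.16% for the differences in response. With 2 tags added, the median absolute log2 strand ratio was 1.632, 1.275 and 1.206 in AML2 and 1.598, 1.139 and 1.207 in AML3 (vehicle, JQ1, OTX015).

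The replicate block takes equal numbers as paired, which the labels do not state. It gave 1.05% opposed between the lines and 3.42% with JQ1 in AML2. For the differences in response it gave 49 and 58 promoters and 2.89% and 3.68% of balances. Of 6 libraries, 3 correlated best with their own number between the lines, 5 and 6 with JQ1 and 2 and 6 with OTX015. Between OTX015 and JQ1 the counts were 3 in AML2 and 4 in AML3. The block changed no call between OTX015 and JQ1.

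Leaving out 1 library gave 68 (without the second AML3 vehicle library) to 142 promoters between the lines, with 0 to 0.998% opposed, 6.98% (without the third AML3 JQ1 library) to 13.1% opposed with JQ1 in AML3, and for OTX015 in AML2 11.6% (without the first OTX015 library) to 19.0% both called and 1.74% (without the third) to 4.24% opposed. Differences in response ran from 15 (without the second AML2 JQ1 library) to 34 promoters with JQ1 and 16 (without the second AML2 OTX015 library) to 50 with OTX015. Balance calls ran from 0.526% (without the second AML3 vehicle library) to 4.21% between the lines, 19.5% (without the third AML2 JQ1 library) to 32.1% with JQ1 in AML2, 1.05% to 2.37% for the JQ1 difference and 0.263% (without the second AML2 vehicle library) to 2.11% for the OTX015 difference. The higher share of differences in response was 53.9% and 50% (JQ1 and OTX015), 45.2% and 37.5% by DESeq2 and 43.8% and 31.8% without a filter. Leaving out 1 library also moved this split. The OTX015 differences, 17 higher and 17 lower in all libraries, were 5 and 11 without the second AML2 OTX015 library. Without the second AML3 vehicle library 5 were higher. The causes were not tested, other than that fewer promoters or libraries enter some settings. The shallow libraries numbered 3 limit promoters of few tags.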

Other observations

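Some pairs with a marked difference between the lines with vehicle lie outside the groups described. AC015912.3 was at 13.1, 16.8 and 10.4 CPM in AML2 and 3, 1.77 and 5.73 CPM in AML3 (log2 difference -2.10 ± 0.46). With JQ1 it rose in AML3 to 36.2, 35.4 and 50.2 CPM (log2 fold change 3.59 ± 0.42) and was not called in AML2. The facing TRIM25 was at 21.8, 23.6 and 28.7 CPM in AML2 and 30.6, 28.3 and 21.5 in AML3, and was not called between the lines or with JQ1. TAX1BP3, a PDZ domain protein, at its start 3571863 was at 6.96, 6.17 and 15.7 CPM in AML2 and 28.2, 21.2 and 37.2 in AML3 (1.69 ± 0.34). EMC6, a subunit of a membrane insertase, faces it and was not called (-0.68, adjusted p = 0.06191). ATP5ME, a subunit of the mitochondrial ATP synthase, was lower in AML3 at its start 668035 (-1.13 ± 0.36), and the facing MYL5, a myosin light chain, was higher (1.65 ± 0.49). It is the 1 pair opposed between the lines.

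Pairs with nearly equal strands with vehicle parted with drug in part. BRD8, a bromodomain subunit of an acetyltransferase complex, rose from 19.2, 16.8 and 21.5 CPM to 60.6, 51.5 and 61.3 with JQ1 in AML3 (1.60 ± 0.30). The facing KIF20A, a kinesin of cell division, fell from 13.8, 15 and 15.8 CPM to 4.52, 3.22 and 7.43 (-1.62 ± 0.53). MAPKAPK5, a protein kinase, and the facing MAPKAPK5-AS1 were not called in any drug comparison. An unnamed pair on chromosome 14 had almost no tags with vehicle. Its minus-strand start at 81685682 rose in AML3 from 0, 0.884 and 1.43 CPM to 25.3, 27.9 and 46.5 with JQ1 (5.49 ± 0.58), and its plus-strand start at 81685834 from 1.80, 0 and 2.86 to 34.4, 32.2 and 110 (5.13 ± 1.04). ALYREF, a messenger RNA export adaptor, fell in each line, from 384, 392 and 611 CPM to 200.5, 234 and 206 with JQ1 in AML2 (-1.11 ± 0.31) and from 400, 352 and 640 to 109, 89.0 and 52.0 in AML3 (-2.44 ± 0.33).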
